A study of Mus musculus with 9 samples.

Results

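Interferon-stimulated genes are described here in sorted mouse fibroblasts of the spleen and of lymph nodes. The set was a list of 41 gene symbols, and all 41 were found, each on 1 row, among the 27370 genes of the count table. Interferons are secreted cytokines that put cells into an antiviral state. Type I interferons bind the receptor made of Ifnar1 and Ifnar2 and, through the kinases Jak1 and Tyk2, lead to a complex, with Stat2 and Irf9 in it, that binds interferon-stimulated response elements (ISRE). Interferon gamma binds the receptor made of Ifngr1 and Ifngr2 and acts through gamma-activated sites (GAS). Of the 41 genes, 32 are antiviral sensors, effectors and transcription factors of the kind that type I interferon induces, called type I style below. The other 9 are the guanylate-binding protein genes Gbp2, Gbp3 and Gbp7, the immunity-related GTPase genes Irgm1, Irgm2, Igtp and Iigp1, and the chemokine genes Cxcl9 and Cxcl10, which interferon gamma induces strongly. The division is a convention, since many of these genes answer both kinds of interferon.

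The study sequenced polyA RNA of 9 libraries in 3 groups of 3, each library a pool of 2 mice aged 4 months, with 45000 cells sorted per group. Every mouse, the untreated ones included, was Wt1CreERT2 RosatdTomato CD64DTR: an inducible Cre at Wt1, a tdTomato reporter that Cre switches on, and a diphtheria toxin receptor driven by CD64, which makes CD64-expressing cells sensitive to the toxin. The first group held tdTomato-negative fibroblastic reticular cells (FRC), the network-forming stroma of lymph nodes, from 6 untreated mice. The second held tdTomato-positive red pulp fibroblasts (RPF) from spleens of 6 untreated mice, called steady RPF, and the third held RPF from 6 mice given diphtheria toxin, called depleted RPF. RPF were thus chosen by their Wt1 lineage mark and FRC by its absence, and organ, gate and cell type cannot be told apart between these groups. No toxin was given to mice without the receptor in these groups, so the toxin and the loss of cells it kills cannot be told apart, and no dose or time was found in the labels. FRC and steady RPF may come from the same mice, and the labels do not tie libraries to mice. The library numbers used below were given here in the order of the samples. They only name libraries within a group, and like numbers do not pair libraries across groups.

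Totals ran from 25414645 to 43879806 counts per library. Levels are CPM (counts scaled to a common library total) after TMM scaling, and changes are log2 fold changes from 1 edgeR quasi-likelihood fit over all 9 libraries, with p adjusted by the Benjamini-Hochberg method across the 15103 genes tested and a threshold of 0.05. All 41 members passed the filter on low counts. RPF markers (Wt1, Tlx1, Tcf21 and Nkx2-5) summed to between 1.77 and 6.16 CPM in FRC, 1150.1 and 1357 in steady RPF and 450.0 and 592 in depleted RPF, and FRC markers such as Ccl21a and Inmt summed to between 4138 and 4413 CPM in FRC and to no more than 28.5 CPM in RPF. Of the general fibroblast markers, Pdgfrb averaged 515, 942 and 2331 CPM in FRC, steady RPF and depleted RPF and Col3a1 at 11185, 1636 and 809 CPM. Dcn was at 26902 CPM in FRC and only 30.6 CPM in steady RPF, and Pdpn, which encodes the gp38 used in staining, at 74.1 and 0.0981 CPM. Markers of red pulp macrophages summed to between 93.1 and 116 CPM in FRC, 229 and 265 in steady RPF and 4.44 and 16.1 in depleted RPF. Y-linked genes had no more than 1 count in FRC 1 and steady RPF 1 and at least 2285 in every other library. Every depleted library held such counts, so libraries without them were uneven between steady and depleted RPF. A term for them was among the alternatives.

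Promoter sequence is shown first, because the ISRE and GAS are the sites through which interferon reaches its target genes. A window from 250 bases before to 50 bases after the transcript start was found for 31 of the 41 members in RefSeq (build GRCm38.p6). The 10 without one were Dhx58, Zbp1, Oas2, Mx1, Mx2, Usp18, Parp9, Parp14, Rtp4 and Iigp1. Searched on both strands, an ISRE form (GAAA, any 2 bases, GAAA) occurred in 18 of 31 members (58.1%) and in 3.99% of all 27025 genes with a window. The GAS form TTCNNNGAA occurred in 8 of 31 (25.8%) and in 9.55% of all genes. A form bound by NF-kB (GGGA, any 4 bases, CC) occurred in 8 of 31 (25.8%) and in 22.9% of all genes. By class, the ISRE form was in 11 of 23 type I style genes (47.8%) and in 7 of 8 Gbp, Irg and Cxcl genes (87.5%). The GAS form was in 5 of 23 (21.7%) and 3 of 8 (37.5%), and so was the NF-kB form. The ISRE form was thus not more frequent in the type I style class, and the shares were not tested. A GAS form can overlap an ISRE form in its GAA, as in Bst2, and a match describes letters and not binding.

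The first stretches come from pairs whose counts cannot be fully told apart and from 2 antiviral genes that carry ISRE forms one after another. Capitals mark the motifs, where TTTC is GAAA read on the other strand, and each stretch runs 5′ to 3′ on the strand of its gene.
Ifit3, chr19:34583367-34583422, plus strand: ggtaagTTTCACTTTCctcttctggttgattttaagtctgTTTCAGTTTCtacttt
Ifit3b, chr19:34607763-34607818, plus strand: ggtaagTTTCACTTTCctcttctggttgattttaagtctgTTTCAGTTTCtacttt
Oas1a, chr5:120907526-120907629, minus strand: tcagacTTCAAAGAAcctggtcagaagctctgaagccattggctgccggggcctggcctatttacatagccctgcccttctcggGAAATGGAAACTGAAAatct
Oas1g, chr5:120887614-120887653, minus strand: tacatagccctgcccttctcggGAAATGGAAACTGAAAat
Isg15, chr4:156200869-156200908, minus strand: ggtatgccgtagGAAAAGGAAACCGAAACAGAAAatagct
Bst2, chr8:71537581-71537620, minus strand: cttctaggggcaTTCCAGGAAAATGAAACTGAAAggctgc
The 56 bases shown for Ifit3 and Ifit3b were identical, with 2 ISRE forms each. The 40 bases shown for Oas1g lay whole within those of Oas1a, which carried a GAS form further upstream. Isg15 held 3 ISRE forms in a row, each sharing its last bases with the next.

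The next stretches come from 5 genes of the second class and from Irf1, which is listed with the type I style genes although interferon gamma and NF-kB induce it strongly. They are shown because they include 4 of the 6 members that were lower in steady RPF than in FRC, and a pair of overlapping genes.
Irgm2, chr11:58214889-58214928, plus strand: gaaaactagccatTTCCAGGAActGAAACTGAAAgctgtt
Igtp, chr11:58199498-58199537, plus strand: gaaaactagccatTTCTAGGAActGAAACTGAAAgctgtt
Gbp2, chr3:142620580-142620619, plus strand: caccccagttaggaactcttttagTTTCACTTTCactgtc
Irf1, chr11:53769918-53770013, plus strand: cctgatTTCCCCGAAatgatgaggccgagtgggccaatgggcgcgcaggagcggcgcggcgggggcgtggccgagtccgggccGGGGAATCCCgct
Cxcl9, chr5:92328194-92328233, minus strand: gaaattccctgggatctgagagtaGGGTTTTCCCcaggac
Cxcl10, chr5:92348977-92349108, minus strand: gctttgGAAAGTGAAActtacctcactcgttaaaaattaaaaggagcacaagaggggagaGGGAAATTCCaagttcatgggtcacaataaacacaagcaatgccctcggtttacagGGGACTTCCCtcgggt
Irgm2 and Igtp shared a GAS form followed by an ISRE form and differed at 1 of 40 bases (C17T, Irgm2 first, counted from the first base shown). Cxcl10 held an ISRE form and NF-kB forms at 2 places, 1 of which matched on both strands, and Cxcl9 and Irf1 held an NF-kB form and no ISRE form in their windows. Gbp2 had, beside the ISRE form shown, an NF-kB form just after its start. Irgm1, also lower in steady RPF and not shown, had ISRE forms and no NF-kB form in its window.

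Comparing steady RPF with FRC asks how the interferon program of spleen and lymph node fibroblasts differs without treatment. Of the 41 members 18 were higher in steady RPF, against 11.5% of all genes tested, and 6 were lower, against 14.4%. The type I style genes had 16 of 32 higher and 2 lower, Irf1 and Usp18, while the Gbp, Irg and Cxcl genes had 2 of 9 higher, Irgm2 and Igtp, and 4 lower, Gbp2, Irgm1, Cxcl9 and Cxcl10. The median log2 fold change was 1.35 for the type I style genes, -0.14 for the second class and -0.02 for all genes tested. With library totals in place of TMM scaling the median of all genes moved by 0.57, 3935 genes were higher and 1342 lower in place of 1734 and 2174, and 29 members were higher and 4 lower. Relative to the median of all genes, the class medians were then 1.38 and -0.12, against 1.37 and -0.12 under TMM. A change of scaling shifts all genes by nearly the same amount, so this likeness was fixed in advance and is no check. The median of the second class, taken alone, turned to 0.02 with upper quartile scaling and 0.43 with library totals. The 24 called members compare with 25.9% of all genes called. The libraries did not overlap for 24 members that were higher and 6 that were lower, against 21.5% and 23.1% of all genes and 44.6% in either direction. Without FRC 2 and steady RPF 2, the libraries lowest for most members, 23 members were higher and 5 lower: Ifit2, Oas2, Isg15, Cmpk2, Ifi35, Gbp3 and Iigp1 were then called higher, at edgeR adjusted p between 0.0132 and 0.0481, and Usp18, Parp9 and Ifi44 were not called (0.0534 to 0.0856). Over all alternatives the adjusted p of the first 7 ran from 0.0044 to 0.316. The 2 libraries were left out because member levels were lowest there, so the calls gained depend on that choice and are no further support. Sorted cells were measured in bulk, so fewer cells of a type and less RNA per cell cannot be told apart, and each p concerns the spread between libraries of 2 pooled mice.

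Both chemokines, ligands of the receptor CXCR3 on activated T cells, were far higher in FRC. Cxcl10 was at 1148, 1100 and 2179.9 CPM in FRC 1, 2 and 3 and at 105, 29.7 and 57.6 CPM in steady RPF 1, 2 and 3. The lowest FRC library lay far above the highest RPF library, and Cxcl10 was 23.0-fold lower in steady RPF (log2 fold change -4.52, SE 0.54, edgeR adjusted p = 0.000318). Cxcl9, its neighbour on chromosome 5, was at 47.9, 39.1 and 90.4 CPM in FRC and 4.92, 2.67 and 2.91 CPM in steady RPF, a 16.9-fold difference (edgeR adjusted p = 0.000257). For both genes FRC 3 was the highest library of all 9.

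Among the transcription factors, Irf1 went the opposite way to the other 3. Irf1 was at 1156, 645 and 1174 CPM in FRC and at 246, 207 and 236 CPM in steady RPF, and was 4.32-fold lower in RPF (edgeR adjusted p = 0.000477). Irf7, which drives the later waves of type I interferon, was at 96.8, 28.1 and 47.5 CPM in FRC and 353, 241 and 449 CPM in steady RPF, so that the groups did not overlap. It was 6.05-fold higher (edgeR adjusted p = 0.00327), and 9.21-fold without FRC 1 (edgeR adjusted p = 0.0011), within a range of adjusted p from 1.46e-07 to 0.0169 over the alternatives. Irf9 and Stat2, parts of the complex that binds the ISRE, were higher in RPF by 0.92 and 1.34 on the log2 scale (edgeR adjusted p = 0.00486 and 0.0049).

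The Ifit genes, whose proteins bind foreign RNA, had 3 of 4 members higher in steady RPF, against 11.5% of all genes tested. Ifit3 was at 38.0, 11.1 and 14.5 CPM in FRC and 253, 116 and 236 CPM in steady RPF, 9.51-fold higher (edgeR adjusted p = 0.00136). Ifit3b was at 2.22, 5.12 and 9.84 CPM in FRC and 76.1, 36.1 and 81.4 CPM in steady RPF, 11.3-fold higher (edgeR adjusted p = 0.00137). The size of both depended on single FRC libraries, with Ifit3 at 15.8-fold without FRC 1 and Ifit3b at 17.7-fold without FRC 3 (edgeR adjusted p = 0.000269 and 0.000883, in ranges from 1.38e-10 to 0.00742 and from 1.10e-10 to 0.00931 over the alternatives). These 2 genes share 51.2% and 45.0% of the 50-base windows of their longest transcripts, so a read can fit either one. With their counts summed, the pair was 9.89-fold higher (edgeR adjusted p = 0.000332). Ifit1 was at 65.9, 21.0 and 80.3 CPM in FRC and 174, 103 and 151 CPM in steady RPF, with an edgeR adjusted p of 0.0425 that rose to between 0.0527 and 0.122 without FRC 1, without any 1 of the 3 steady RPF or without any 1 of the 3 depleted libraries, in a range from 0.00542 to 0.122 over the alternatives. Ifit2 did not overlap either, at 13.1, 0.0682 and 6.05 CPM in FRC and 59.9, 68.9 and 38.4 CPM in steady RPF, but was not called (edgeR adjusted p = 0.062).

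The oligoadenylate synthetase family activates RNase L on sensing double-stranded RNA. It had 3 of 6 members higher, against 11.5% of all genes tested, and none lower, against 14.4%. Oas1a was at 9.87, 5.39 and 12.1 CPM in FRC and 91.3, 29.6 and 80.6 CPM in steady RPF, 7.35-fold higher (edgeR adjusted p = 0.00184). Oas1g was at 3.28, 1.43 and 2.24 CPM in FRC and 22.7, 7.76 and 17.0 CPM in steady RPF, 6.81-fold higher (edgeR adjusted p = 0.00397). Oas1a and Oas1g share 57.6% and 54.7% of their 50-base windows, and their summed counts were 7.25-fold higher (edgeR adjusted p = 0.00162). Oasl2, a related protein with a ubiquitin-like tail, was at 81.5, 54.0 and 82.8 CPM in FRC and 242, 137 and 271 CPM in steady RPF (edgeR adjusted p = 0.00383). Oasl1 averaged 7.96 ± 0.219 CPM in FRC and 13.6 ± 4.16 CPM in steady RPF (edgeR adjusted p = 0.137). Oas2 held 8, 0 and 140 counts in FRC and 1524, 275 and 1190 in steady RPF, apart in every library but uneven within FRC (edgeR adjusted p = 0.0587). Oas3 was near the limit of detection, with 0, 0 and 2 counts in FRC and 0, 158 and 41 in steady RPF.

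Of the 7 other antiviral effectors 4 were called higher in steady RPF, against 11.5% of all genes tested. Rtp4, a receptor transport protein, was at 57.1, 24.5 and 48.3 CPM in FRC and 209, 149 and 217 CPM in steady RPF, 4.43-fold higher (edgeR adjusted p = 0.00114). Xaf1, which promotes cell death, was at 34.2, 9.76 and 19.3 CPM in FRC and 96.7, 52.3 and 93.4 CPM in steady RPF, 3.83-fold higher (edgeR adjusted p = 0.0112). Bst2, or tetherin, which holds budding virus at the cell surface, was at 77.1, 75.0 and 71.2 CPM in FRC and 170, 90.1 and 194 CPM in steady RPF (edgeR adjusted p = 0.0149). Its call was narrow, at 0.0528 and 0.0547 without steady RPF 1 and without steady RPF 3, in a range from 0.000351 to 0.0547 over the alternatives. Ifi44 was at 7.32, 3.96 and 18.6 CPM in FRC and 36.3, 26.6 and 50.4 CPM in steady RPF, 3.79-fold higher (edgeR adjusted p = 0.029). Without FRC 1, FRC 2, steady RPF 1 or steady RPF 3 the adjusted p of Ifi44 was between 0.0555 and 0.0938, in a range from 0.00184 over the alternatives, and without FRC 3 its fold was 6.71 (edgeR adjusted p = 0.00357). Rsad2, or viperin, and Cmpk2, its neighbour on chromosome 12, were uneven in FRC, with Rsad2 at 23.4, 0.102 and 13.4 CPM and Cmpk2 at 32.7, 1.09 and 23.3 CPM, and neither was called (edgeR adjusted p = 0.647 and 0.107). Ifi35 averaged 38.8 ± 4.99 CPM in FRC and 65.3 ± 23.0 CPM in steady RPF (edgeR adjusted p = 0.0733).

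Of the sensors of foreign nucleic acid, Zbp1 and Ifih1 were higher in steady RPF and Dhx58 was not called. Zbp1 was 3.54-fold higher at 95.6 ± 38.5 CPM (edgeR adjusted p = 0.00308). Ifih1, which detects long double-stranded RNA, was at 24.0, 19.0 and 25.5 CPM in FRC and 48.7, 31.7 and 39.9 CPM in steady RPF (edgeR adjusted p = 0.0225), and its adjusted p was between 0.0594 and 0.0852 without FRC 2, steady RPF 1 or steady RPF 3, in a range from 0.000847 over the alternatives. Dhx58 averaged 19.5 ± 1.13 CPM in FRC and 41.7 ± 12.8 CPM in steady RPF (edgeR adjusted p = 0.0831).

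None of the 3 members of the Isg15 system was called higher in steady RPF, against 11.5% of all genes tested. Usp18, which removes Isg15 from proteins and restrains Ifnar2 signalling, was at 122, 103 and 152 CPM in FRC and 72.4, 35.4 and 70.4 CPM in steady RPF, 2.12-fold lower with no overlap (edgeR adjusted p = 0.0377). That call was lost without FRC 1, FRC 3, any 1 of the 3 steady RPF libraries or depleted RPF 2, at adjusted p between 0.0577 and 0.111, and at 0.257 with library totals only, in a range from 0.0111 over the alternatives. Isg15 itself, a ubiquitin-like protein, was at 12.8, 3.75 and 9.31 CPM in FRC and 29.5, 11.7 and 35.5 CPM in steady RPF, with FRC 1 above steady RPF 2 (edgeR adjusted p = 0.0517). Trim25, a ubiquitin ligase that activates RNA sensing, averaged 89.4 ± 5.15 CPM in FRC and 92.6 ± 10.1 CPM in steady RPF (edgeR adjusted p = 0.826).

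Parp9 and Dtx3l form a complex that marks proteins with ubiquitin, and Parp14 is an ADP-ribosyltransferase. Parp9 was at 43.5 ± 6.39 CPM in FRC and 81.6 ± 23.2 CPM in steady RPF (edgeR adjusted p = 0.0434), a call that was lost without any 1 library of FRC, without steady RPF 1 or 3 and without depleted RPF 2 or 3, at adjusted p between 0.0546 and 0.136, in a range from 0.00403 over the alternatives. Dtx3l and Parp14 were not called (edgeR adjusted p = 0.0779 and 0.34). Dtx3l and Parp9 overlap on opposite strands, and the labels give no strand setting, so their reads may be mixed. The Mx genes, GTPases that block virus replication, were low and not called, Mx1 at 7.62 ± 5.18 and 7.48 ± 3.87 CPM and Mx2 at 8.71 ± 8.94 and 10.5 ± 2.62 CPM (edgeR adjusted p = 0.987 and 0.849).

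The 7 GTPases, which act in defence against intracellular microbes, split in both directions. Gbp2 was at 247, 186 and 334 CPM in FRC and 83.1, 62.1 and 62.5 CPM in steady RPF, 3.69-fold lower (edgeR adjusted p = 0.000258). Irgm1 was at 361, 189.9 and 413 CPM in FRC and 163, 132 and 160.3 CPM in steady RPF, 2.12-fold lower (edgeR adjusted p = 0.0127), but the adjusted p was 0.0553 without steady RPF 2 and 0.143 with library totals only, the highest of a range from 0.000268. Irgm2 went the other way, at 146, 73.1 and 156 CPM in FRC and 287, 250.2 and 271 CPM in steady RPF (edgeR adjusted p = 0.0147). Igtp was at 91.1, 101 and 132 CPM in FRC and 201, 131 and 216 CPM in steady RPF, with steady RPF 2 below FRC 3, and was called at an edgeR adjusted p of 0.0417 that rose to between 0.0629 and 0.139 without FRC 1, FRC 2, steady RPF 1, steady RPF 3 or depleted RPF 2, in a range from 0.00194 over the alternatives. Irgm2 and Igtp overlap on chromosome 11 and share 7.30% and 12.3% of their 50-base windows, so their counts are not fully separate. Iigp1 (edgeR adjusted p = 0.0764), Gbp3 (0.12) and Gbp7 (0.759) were not called, and the signs of Gbp7 and of Mx1 turned with upper quartile scaling or library totals.

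**Figure D1:**
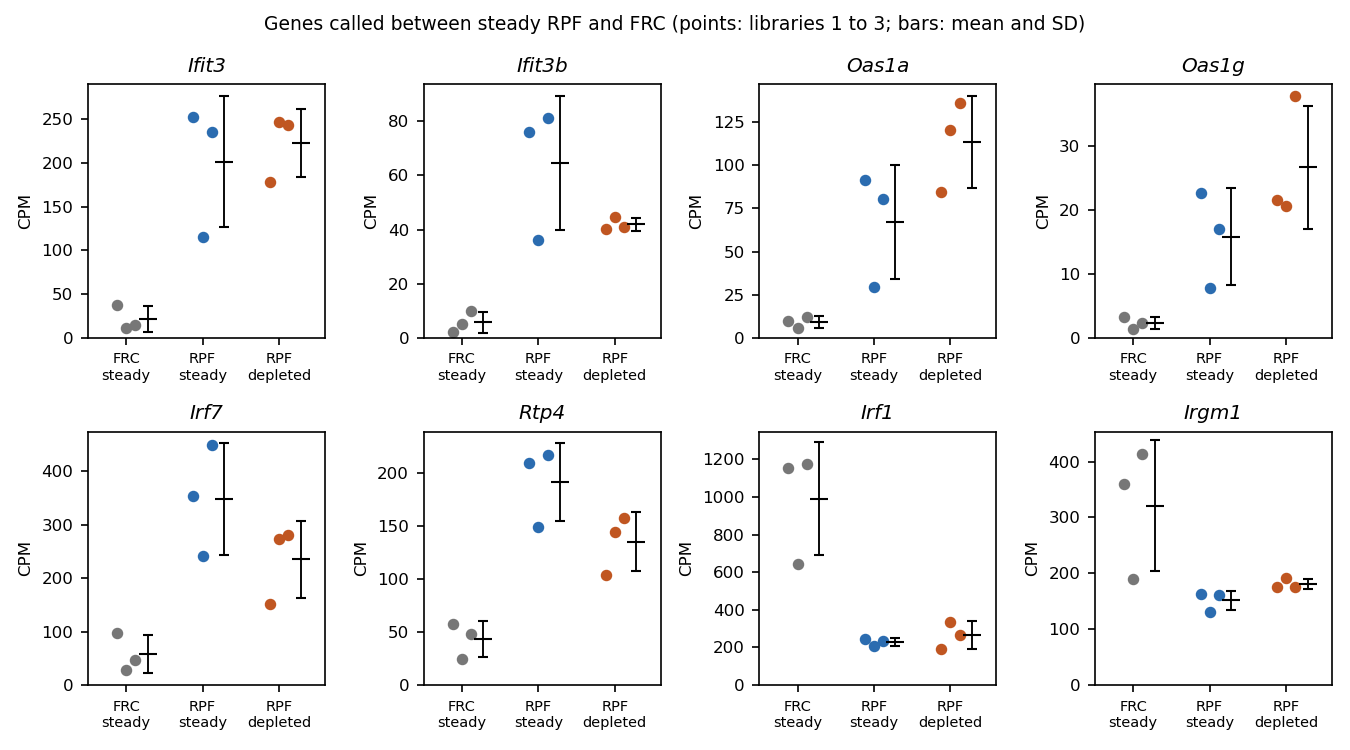
CPM (vertical axis, each panel on its own scale from 0) of 8 members called between steady RPF and FRC, by group; points are libraries 1 to 3 from left to right and the bar beside them is the mean and SD. Ifit3, Ifit3b, Oas1a, Oas1g, Irf7 and Rtp4 were lower in all 3 FRC libraries than in any RPF library, and Irf1 and Irgm1 were higher in FRC than in steady RPF.

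Red pulp macrophage markers were higher in steady RPF than in FRC for 4 of 12 tested and lower for 1, with summed levels of 93.1 to 116 CPM in FRC and 229 to 265 CPM in steady RPF and Cd5l at 0 in FRC. Neutrophil markers summed to between 0.990 and 6.56 CPM in FRC and between 47.3 and 350.4 CPM in steady RPF, with 3 of 7 tested higher. Erythroid markers summed to between 0.477 and 99.1 CPM in FRC and between 164 and 713 CPM in steady RPF, highest in library 2, with 1 of 6 higher. Monocyte markers summed to between 133 and 192 CPM in FRC and between 290.4 and 424 CPM in steady RPF, with 2 of 4 higher (Plac8 and Chil3, the latter at 0 in FRC). Plasmacytoid dendritic cell markers went the other way, at 0, 20.3 and 29.4 CPM in FRC 1, 2 and 3, mostly Klk1, and between 1.22 and 3.94 CPM in steady RPF. None of the 5 was called, 1 of them was tested, and their defining gene Siglech averaged 0.0199 CPM in FRC and 0.303 CPM in steady RPF. T and NK cell markers summed to no more than 2.79 CPM in any library. Over all genes tested, 11.5% were higher and 14.4% lower in steady RPF than in FRC. The part of these cells' RNA in the member differences was not tested.

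Over the members with a promoter window, the NF-kB form was in 4 of the 5 that were lower in steady RPF (Irf1, Gbp2, Cxcl9 and Cxcl10). It was in 1 of the 15 that were higher (Xaf1), in 3 of the 11 not called and in 22.9% of all genes. The ISRE form was in 3 of those 5, in 10 of those 15, in 5 of those 11 and in 3.99% of all genes. These are counts of few genes chosen with their values known, and no test was made.

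Comparing depleted with steady RPF asks what happens to these genes in red pulp fibroblasts when CD64-expressing macrophages are lost. Of the 41 members 6 were higher after depletion, against 11.1% of all genes tested, and 1 was lower, against 9.96%: Oasl1, Usp18, Trim25, Ifi35, Gbp2 and Cxcl10 rose and Irgm2 fell. These shares, 14.6% and 2.44%, are near the background for the genes that rose and below it for those that fell, and 21% of all genes were called in either direction. The libraries did not overlap for 13 members that were higher and 1 that was lower, against 21.4% and 23% of all genes and 44.4% in either direction. The median log2 fold change was 0.36 for the type I style genes, 0.09 for the second class and -0.09 for all genes tested. The difference between the class medians was 0.27, and 0.13 to 0.29 with 1 library left out. With library totals the median of all genes moved by -0.17, 1297 genes were higher and 1864 lower in place of 1671 and 1505, and 4 members were higher and 1 lower. The class medians relative to all genes were then 0.45 and 0.19, as against 0.45 and 0.18 under TMM, a likeness again fixed in advance. The median of the second class, taken alone, turned to -0.07. Without steady RPF 2, the library with the lowest levels of most members, 4 members were called in place of 7. Without both FRC 2 and steady RPF 2, chosen for their low levels of the members themselves, 5 were higher and 1 lower. Trim25 and Ifi35 were then not called (edgeR adjusted p = 0.0701 and 0.0878) and Rsad2 was (0.0235).

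**Figure D2:**
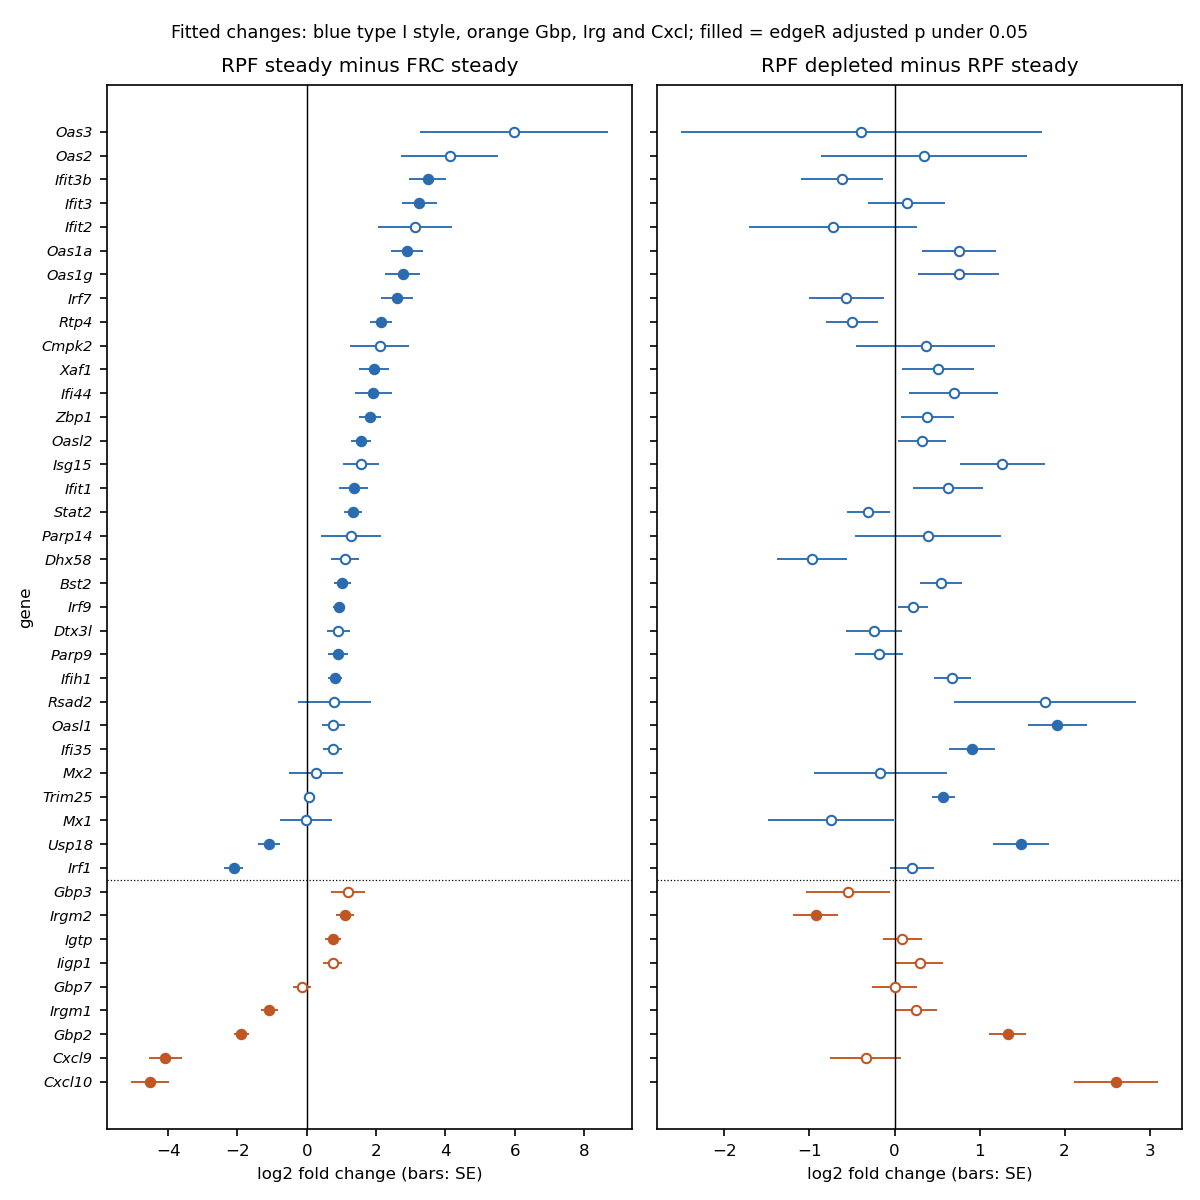
Fitted log2 fold change of each of the 41 members (horizontal axis, bar: SE) for steady RPF against FRC on the left and depleted against steady RPF on the right, with type I style genes in blue above the dotted line and Gbp, Irg and Cxcl genes in orange below; filled points have an edgeR adjusted p under 0.05. On the left 18 filled points lie above 0 and 6 below, and on the right 6 lie above and 1 below, and the left point of Oas3 rests on 2 counts in FRC and is no measure of its size.

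Cxcl10 had the largest change of any member after depletion. At chr5:92346638-92348889 (positions of genes are those of the deposited table, build mm10), it was at 105, 29.7 and 57.6 CPM in steady RPF 1, 2 and 3 and at 235, 470.2 and 466 CPM in depleted RPF 1, 2 and 3. All depleted libraries lay above all steady ones, and the rise was 6.09-fold (log2 fold change 2.61, SE 0.50, edgeR adjusted p = 0.00578). The depleted level was still 3.78-fold below that of FRC (edgeR adjusted p = 0.0137). Cxcl9 was at 4.92, 2.67 and 2.91 CPM in steady RPF and 2.73, 1.78 and 3.77 CPM in depleted RPF, overlapping and low throughout (edgeR adjusted p = 0.645). The difference between the responses of Cxcl9 and Cxcl10 was not tested.

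Gbp2 was the one GTPase gene that rose. It (chr3:142620602-142638008) was at 83.1, 62.1 and 62.5 CPM in steady RPF and 167, 171 and 184 CPM in depleted RPF, 2.51-fold higher with no overlap (SE 0.21 on the log2 scale, edgeR adjusted p = 0.00241). Irgm2 (chr11:58199618-58222782) was the one member that fell, from 287, 250.2 and 271 to 125, 171 and 129 CPM, a 1.90-fold difference (edgeR adjusted p = 0.0361). Its call did not hold without any 1 of the 3 steady RPF libraries or without depleted RPF 1 or 3, at adjusted p between 0.0770 and 0.119, nor with a term for libraries without Y-linked reads (0.0779), in a range from 0.00318 over the alternatives. Igtp, which overlaps Irgm2, was at 201, 131 and 216 CPM in steady RPF and 157, 192 and 234 CPM in depleted RPF (edgeR adjusted p = 0.843). Irgm1 and Iigp1 were slightly higher in every depleted library, Irgm1 at 163, 132 and 160.3 CPM in steady RPF and 176, 192 and 176 CPM in depleted RPF and Iigp1 at 447, 345 and 383 CPM in steady RPF and 475, 468 and 501 CPM in depleted RPF, and neither was called (edgeR adjusted p = 0.542 and 0.517). Gbp3 and Gbp7 overlapped between the groups, at log2 fold changes of -0.55 and 0.00. With other scalings the sign of Gbp7 turned, as did that of Igtp with upper quartile scaling or library totals.

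All 3 members of the Isg15 system lay above steady RPF in every depleted library, as did 21.4% of all genes tested. Usp18 (chr6:121245906-121270917) was at 72.4, 35.4 and 70.4 CPM in steady RPF and 111, 170.2 and 219 CPM in depleted RPF, 2.81-fold higher (SE 0.33 on the log2 scale, edgeR adjusted p = 0.012). Its depleted level did not pass the test against FRC (edgeR adjusted p = 0.365). Trim25 (chr11:88999376-89020293) was at 102, 82.2 and 93.4 CPM in steady RPF and 148, 123 and 142 CPM in depleted RPF, 1.49-fold higher (edgeR adjusted p = 0.0144), and the adjusted p was between 0.0519 and 0.0629 without steady RPF 2, depleted RPF 1 or depleted RPF 3 and 0.0633 with library totals only, in a range from 0.000847 to 0.0701 over the alternatives. Isg15 was at 29.5, 11.7 and 35.5 CPM in steady RPF and 48.6, 59.3 and 76.6 CPM in depleted RPF, 2.41-fold higher, and was not called (log2 fold change 1.27, SE 0.50, edgeR adjusted p = 0.114).

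Oasl1, which restrains the translation of Irf7, rose most among the type I style genes that were called. It (chr5:114923240-114937915) was at 16.5, 8.81 and 15.4 CPM in steady RPF and 30.7, 67.7 and 54.9 CPM in depleted RPF, 3.77-fold higher (SE 0.35 on the log2 scale, edgeR adjusted p = 0.00462). Its 3 FRC libraries were at 7.89, 7.78 and 8.20 CPM, below all depleted and all steady RPF libraries. The other 5 members of the Oas family were not called, with log2 fold changes from -0.39 for Oas3 to 0.76 for Oas1a. The summed counts of Oas1a and Oas1g were 1.69-fold higher (edgeR adjusted p = 0.253).

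Ifi35 (chr11:101448407-101458698) was at 68.5, 40.9 and 86.5 CPM in steady RPF and 96.2, 136 and 135 CPM in depleted RPF, 1.88-fold higher (edgeR adjusted p = 0.0433). This call held in 8 of 20 alternatives, the fewest of the 7. It was lost without any 1 library of FRC, without steady RPF 1 or 2 and without depleted RPF 2 or 3. Those edgeR adjusted p values were between 0.0515 and 0.130. Each other scaling lost the call too, at 0.0542 to 0.0839, as did a term for libraries without Y-linked reads. The range over the alternatives began at 0.0128. Part of Ifi35, 10.7% of its 50-base windows, also occurs on the opposite strand in the gene model Gm11626. Rsad2 was at 11.9, 26.6 and 25.9 CPM in steady RPF and 76.2, 78.6 and 64.6 CPM in depleted RPF, 3.41-fold higher with no overlap, and it was not called (edgeR adjusted p = 0.299, and 0.00546 to 0.515 over the alternatives). It was called when the RPF groups were fitted alone (0.00546) and without FRC 2 (0.00968). Bst2 was at 170, 90.1 and 194 CPM in steady RPF and 206, 215 and 242 CPM in depleted RPF, also without overlap and not called (edgeR adjusted p = 0.155).

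Ifih1 and Ifit1 completed the members above steady RPF in every depleted library. Ifih1 was at 48.7, 31.7 and 39.9 CPM in steady RPF and 63.9, 56.7 and 72.4 CPM in depleted RPF, just short of the threshold (edgeR adjusted p = 0.0523), and it passed in 7 of 20 alternatives. Ifit1 was at 174, 103 and 151 CPM in steady RPF and 207, 247 and 209 CPM in depleted RPF (edgeR adjusted p = 0.339). The other Ifit genes overlapped between the groups, and Ifit3 and Ifit3b summed were at 0.995 of the steady level (edgeR adjusted p = 0.999). The sign of Ifit3 turned with library totals.

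None of the 4 transcription factors was called after depletion, against 21% of all genes tested. Irf7 was at 353, 241 and 449 CPM in steady RPF and 152, 272 and 280.4 CPM in depleted RPF (log2 fold change -0.57, SE 0.44, edgeR adjusted p = 0.426). Irf1 was at 191, 338 and 265 CPM in the depleted libraries, on both sides of the steady values (edgeR adjusted p = 0.65). Irf9 and Stat2 had log2 fold changes of 0.21 and -0.31 and SE of 0.17 and 0.25. Dhx58 had the lowest log2 fold change of all members, -0.97 (SE 0.41, edgeR adjusted p = 0.135), with depleted libraries at 11.3, 17.3 and 35.1 CPM. Zbp1, Rtp4, Xaf1, Ifi44, Cmpk2, Parp9, Parp14, Dtx3l, Mx1 and Mx2 overlapped between the groups, with log2 fold changes between -0.75 for Mx1 and 0.69 for Ifi44.

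**Figure D3:**
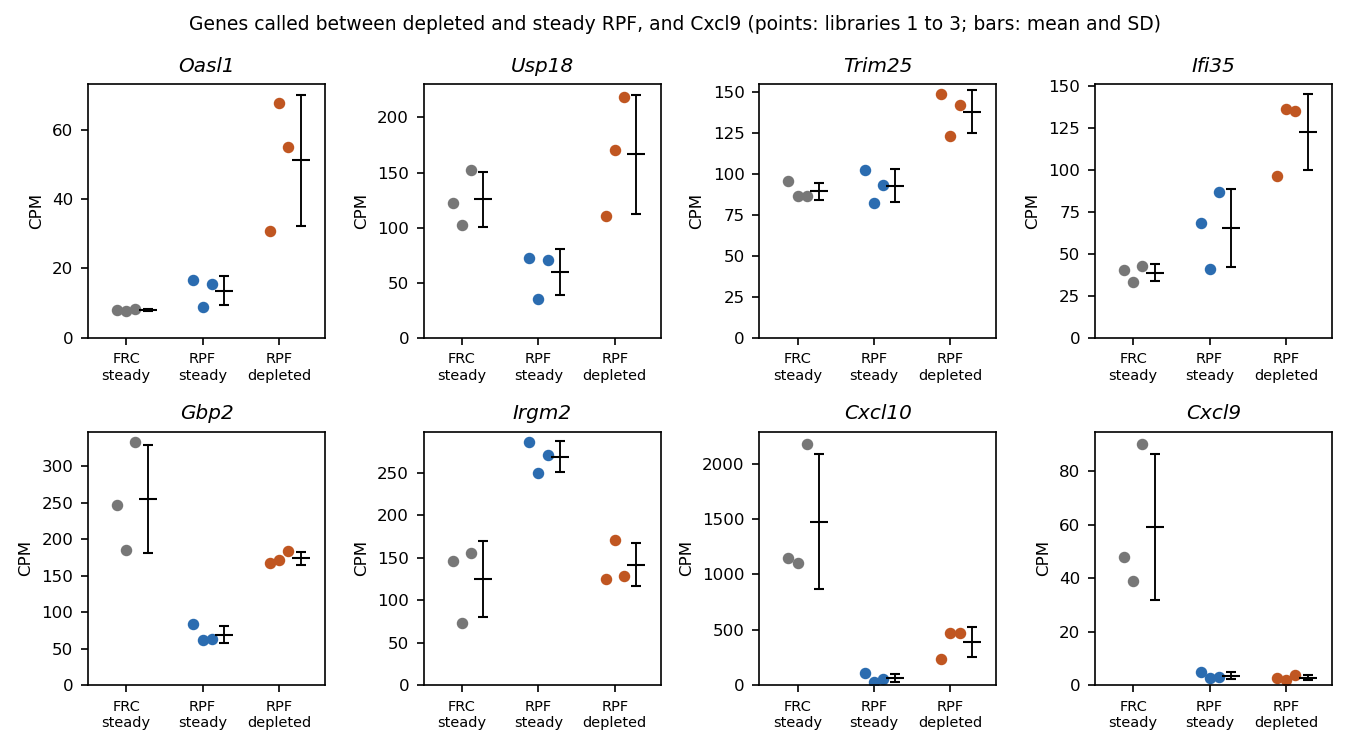
CPM (vertical axis, each panel on its own scale from 0) of the 7 members called between depleted and steady RPF and of Cxcl9, by group; points are libraries 1 to 3 from left to right and the bar beside them is the mean and SD. Oasl1, Usp18, Trim25, Ifi35, Gbp2 and Cxcl10 were higher and Irgm2 lower in all 3 depleted than in all 3 steady RPF libraries, while Cxcl9 stayed under 5 CPM in RPF.

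Markers of red pulp macrophages moved with the depletion, with 9 of 12 tested lower, summed levels of 229 to 265 CPM in steady RPF and 4.44 to 16.1 CPM in depleted RPF, and C1qa, Cd5l, Adgre1 and Fcgr1 at 0 in depleted RPF. Their part in the member differences, such as that of Irgm2, was not tested. Of the 4 monocyte markers 1 rose and 1 fell, and of all genes tested 11.1% rose and 9.96% fell. Plac8 rose from 302 ± 96.2 CPM in steady RPF to 534 ± 71.6 CPM in depleted RPF, and Lyz2 fell from 28.2 ± 17.6 to 9.40 ± 0.912 CPM. Ly6c2, at 3.75 ± 2.63 and 1.05 ± 0.264 CPM, and Chil3, at 7.15 ± 8.75 and 0.172 ± 0.298 CPM, were not called, though their depleted libraries also lay below all steady ones. Neutrophil markers summed to between 47.3 and 350.4 CPM in steady RPF, highest in library 2, and between 2.37 and 48.2 CPM in depleted RPF. The part of these cells was not tested either.

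Depleted RPF were also compared with FRC, to place the depleted level against the lymph node level. This comparison shares libraries with the other 2 and is no independent evidence. Here 22 of 41 members were higher and 4 lower (Irf1, Irgm1, Cxcl9 and Cxcl10), against 16.9% and 18.8% of all genes, or 35.8% in either direction. The libraries did not overlap for 27 members that were higher and 4 that were lower. Over all genes these shares were 24.5% and 25.8%, or 50.3% in either direction. The 4 without overlap were Irf1, Gbp2, Cxcl9 and Cxcl10, while Irgm1 overlapped. Isg15 was 7.11-fold above FRC (edgeR adjusted p = 0.00319), Oas1a 12.4-fold (0.000431) and Oasl1 6.42-fold (0.00048). The lower call of Irgm1 was lost without FRC 1, FRC 3 or any 1 of the 3 depleted RPF libraries, at edgeR adjusted p between 0.0698 and 0.103. Cxcl9 was 21.4-fold below FRC (edgeR adjusted p = 0.000138). Gbp2 averaged 174 ± 9.10 CPM in depleted RPF and 256 ± 74.4 CPM in FRC (edgeR adjusted p = 0.0696).

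Within groups, single libraries were low for most members. FRC 2 was the lowest of its group for 35 of the 41 members, against 31.8% of all genes tested. Steady RPF 2 was the lowest for 37, against 31.7% of all genes, and depleted RPF 1 for 28, against 31.5%. Summed over the 32 type I style genes, levels were 2299.8, 1338 and 2284 CPM in FRC 1, 2 and 3, 3170.1, 2019 and 3309 CPM in steady RPF and 2731, 3609 and 3794 CPM in depleted RPF. Steady RPF 2 thus fell below FRC 1 and FRC 3, and depleted RPF 1 below steady RPF 1 and 3. Summed over the 9 Gbp, Irg and Cxcl genes, levels were 2468, 1879.9 and 3752 CPM in FRC, 1501, 1076 and 1408 CPM in steady RPF and 1461, 1831 and 1858 CPM in depleted RPF, with every FRC library above every RPF library. These sums weigh abundant genes most, and Irf1 and Cxcl10 make up much of those in FRC.

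**Figure D4:**
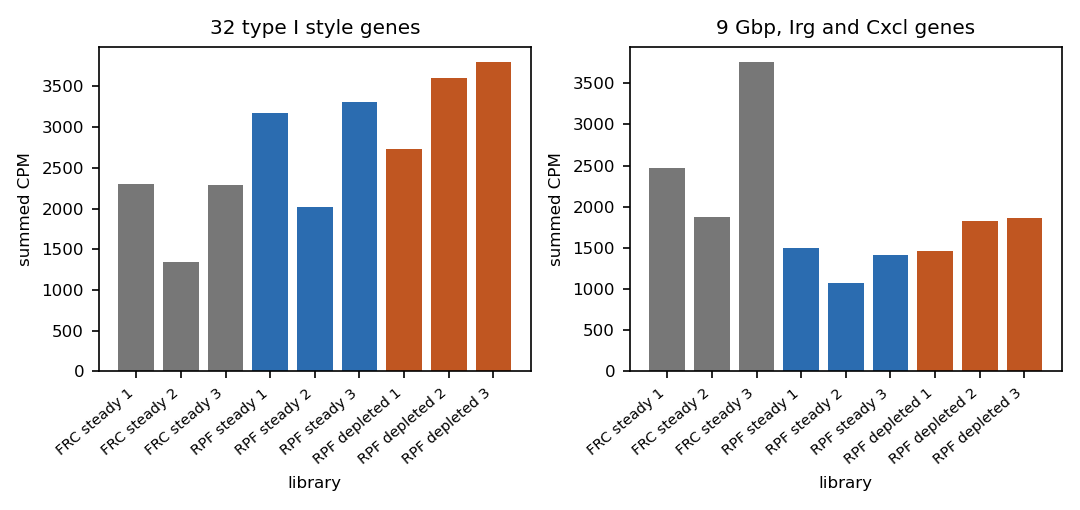
Summed CPM (vertical axis) of the 32 type I style genes and of the 9 Gbp, Irg and Cxcl genes in each of the 9 libraries (horizontal axis). FRC 2 and steady RPF 2 are the lowest bars of their groups in both panels, and all FRC bars exceed all RPF bars in the panel of the Gbp, Irg and Cxcl genes.

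Among members at 5 CPM or more, the median coefficient of variation within a group was 37.0% in FRC, 30.1% in steady RPF and 21.9% in depleted RPF. Over all genes at that level it was 24.0%, 18.2% and 17.8%. Several genes were near 0 in FRC 2 alone: Rsad2 at 0.102 CPM beside 23.4 and 13.4 CPM, Ifit2 at 0.0682 beside 13.1 and 6.05 CPM, and Parp14 at 1.09 beside 18.5 and 42.2 CPM. Oas2 had 0 counts there and Cmpk2 was at 1.09 CPM. Zbp1, Ifit3b, Trim25, Bst2 and Igtp were not lowest in FRC 2, with Bst2 at 77.1, 75.0 and 71.2 CPM in the 3 FRC libraries.

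**Figure D5:**
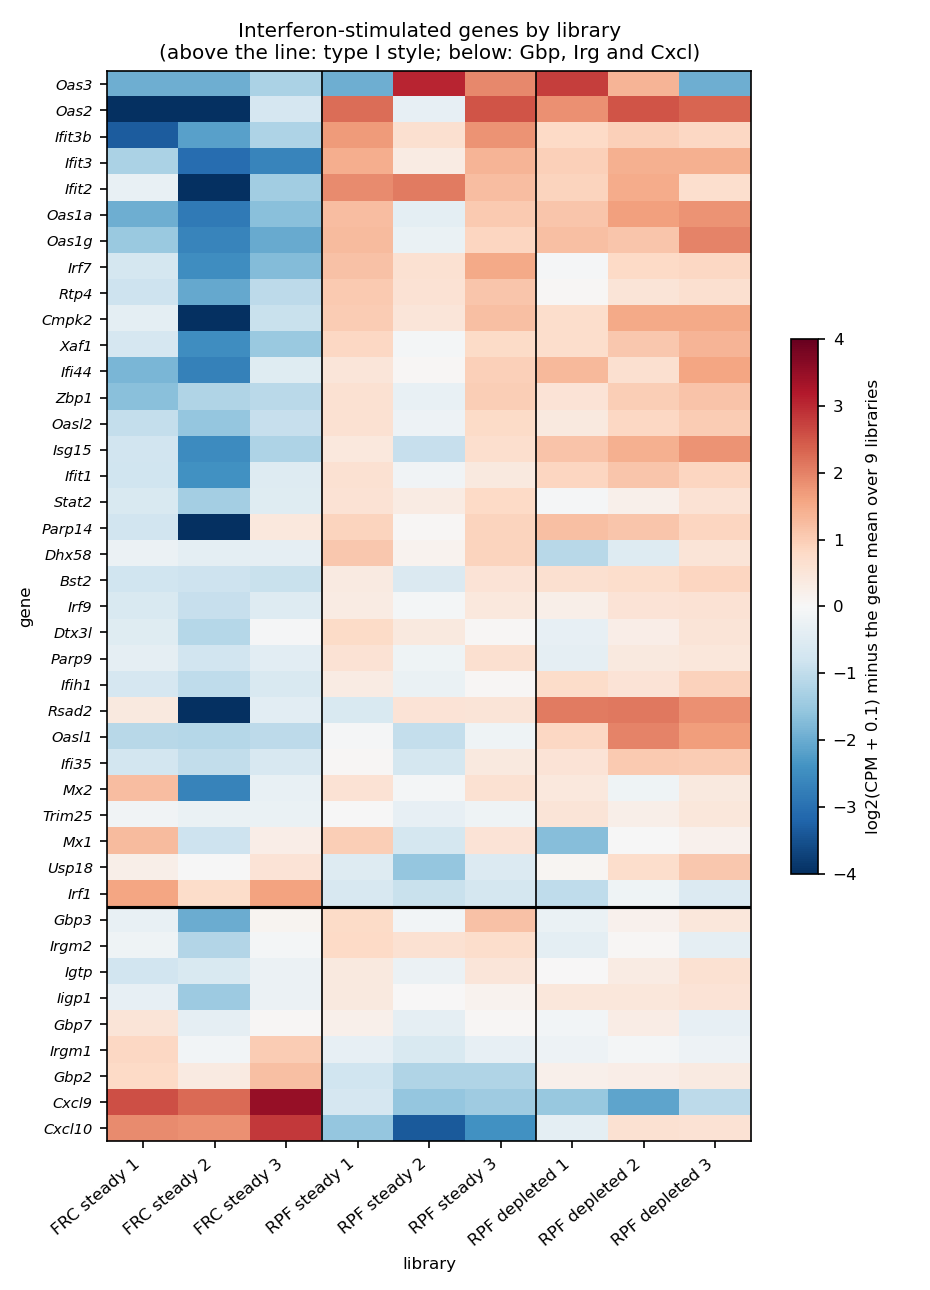
Log2(CPM + 0.1) of each member (rows) in each of the 9 libraries (columns), minus the gene's mean over the libraries; the colour scale ends at -4 and 4, and the thick line parts the type I style genes above from the Gbp, Irg and Cxcl genes below. The type I style rows are mostly blue in FRC, darkest in FRC 2, while Irf1, Gbp2, Cxcl9 and Cxcl10 are red in FRC. Irgm1 is red in the FRC libraries other than FRC 2.

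To compare levels between genes, CPM were divided by the median transcript length in the deposited table, giving CPM per kb. In FRC Cxcl10 led at 1206 ± 499 and Irf1 followed at 1198 ± 363, a difference well within their spread, and Usp18 came next at 198 ± 39.2. In steady RPF Irf7 led at 428 ± 128. Irf1 at 277 ± 24.4, Oasl2 at 260.4 ± 85.0 and Bst2 at 252 ± 90.5 followed, differing among themselves by less than the SD of Oasl2 or Bst2. In depleted RPF Bst2 stood at 367 ± 31.5, Oasl2 at 326 ± 70.1, Irf1 at 319.8 ± 88.3 and Cxcl10 at 319 ± 110.1. The order depends on the length used: per longest coding transcript, Bst2 led steady RPF at 191 ± 68.8 and Irf7 stood at 155 ± 46.6, while Cxcl10 led in FRC at 1091 ± 451 and in depleted RPF at 288 CPM per kb. The least abundant member per length was Oas3 in every group.

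Upstream of these genes, the interferon genes themselves had almost no counts. Of 20 ligand genes listed, 6 were in the table and 14 were not analysed here, Ifng among them. The 6 had counts in 1 library each: 3 for Ifnb1, 14 for Ifna2 and 9 for Ifna6 in depleted RPF 2, 16 for Ifna4 in depleted RPF 1, 7 for Ifna5 in depleted RPF 3 and 32 for Ifna13 in FRC 3. None passed the filter, so none was tested.

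Of 9 receptor and kinase genes, 4 were higher and 1 lower in steady RPF than in FRC, against 11.5% and 14.4% of all genes tested. After depletion 3 rose and 2 fell, against 11.1% and 9.96% of all genes. Ifngr1, the ligand-binding chain of the interferon gamma receptor, was at 364 ± 46.7 CPM in FRC, 149 ± 26.6 in steady RPF and 298 ± 32.7 in depleted RPF (edgeR adjusted p = 0.000486 for RPF against FRC and 0.00269 for depletion). It was the one receptor gene lower in steady RPF. Ifngr2, its partner, rose from 84.2 CPM in FRC to 149 in steady and 237 CPM in depleted RPF (edgeR adjusted p = 0.0115 and 0.0333). Ifnar2 was higher after depletion, at 441 ± 36.3 CPM against 238 ± 33.7 CPM (adjusted p = 0.00305 by edgeR), and Ifnar1 was not called (edgeR adjusted p = 0.169). Tyk2 was lower after depletion, at 5.85 ± 2.82 CPM against 31.5 ± 9.96 CPM (adjusted p = 0.00302 by edgeR), as was Il10rb, while Jak1 and Jak2 were not called after depletion. Il10rb, Ifnlr1, Ifngr2 and Jak1 were the 4 higher in steady RPF than in FRC.

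Of 13 further transcription factors and brakes, 5 rose after depletion (38.5%, against 11.1% of all genes) and none fell (against 9.96%): Irf8, Stat3, Irf2bp2, Socs3 and Ptpn2. Irf8 went from 215 ± 22.8 to 522 ± 21.0 CPM (edgeR adjusted p = 9.97e-05), and Socs3, a feedback inhibitor of cytokine receptors, from 202 ± 39.0 to 519 ± 117 CPM (edgeR adjusted p = 0.00161). Between steady RPF and FRC, 3 of the 13 were higher (Irf5, Irf8 and Ptpn6) and 6 lower (Stat3, Irf2, Irf2bp2, Socs1, Socs3 and Ptpn2), or 23.1% and 46.2% against 11.5% and 14.4% of all genes. Of 10 further sensors and adaptors, Tmem173 and Myd88 rose after depletion (20%, against 11.1% of all genes) and none fell (against 9.96%). Myd88 was the one called between steady RPF and FRC, at 416 CPM in FRC and 80.7 CPM in steady RPF. This is 10% lower and none higher, against 14.4% and 11.5% of all genes.

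Of 29 other type I style genes, 9 rose and 2 fell after depletion, or 31.0% and 6.90% against 11.1% and 9.96% of all genes. Ifitm3, which blocks virus entry, went from 1354 ± 291 to 2566 ± 80.5 CPM (adjusted p = 0.00267 by edgeR). Ifitm1, Ifitm2, Ifi27, Ifi204, Slfn2, Phf11d, Tor3a and Ms4a4d rose too. Ifi27l2a fell to 120 ± 38.3 CPM from 545 ± 255 CPM (adjusted p = 0.00324 by edgeR), and Samhd1 was lower as well. Between steady RPF and FRC, 6 of the 29 were higher (Adar, Ifitm1, Slfn2, Slfn5, Slfn8 and Ifi27l2a) and 4 lower (Ifi27, Isg20, Ifi203 and Ms4a4d), or 20.7% and 13.8% against 11.5% and 14.4% of all genes. Of 14 other interferon gamma style genes tested, Icam1 rose and Gbp8 and Serping1 fell after depletion. These are 7.14% and 14.3%, against 11.1% and 9.96% of all genes. Tgtp2 was higher and Cd274, Socs1, Icam1 and Serping1 were lower in steady RPF than in FRC, or 7.14% and 28.6% against 11.5% and 14.4%. Socs1 stands in 2 of these lists.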

How the data were processed

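PolyA RNA of 9 sorted-cell libraries was sequenced. The values used are whole-number read counts per gene as deposited by the authors. Per the submitters' processing notes, the tools included STAR 2.5.3a, Bowtie2 2.2.8, HTSeq 0.6.1p1 and cutadapt 1.10 and the genome build was mm10, with no role or order stated. No label gives the strand setting of the counting or the release of the annotation. The table also held 24 columns of per-sample values that matched no sample and were not used, as well as gene coordinates and lengths.

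From the counts, edgeR 4.0.16 (R 4.3.3) filtered genes with filterByExpr, leaving 15103 of 27370 (881 had no count), scaled libraries by TMM and fitted 1 robust quasi-likelihood model to the 3 groups, with 6 residual degrees of freedom. Tests were two-sided, adjusted by the Benjamini-Hochberg method over all genes tested and called under 0.05. Fold changes are fitted values, and levels are the mean ± SD of CPM over n = 3 libraries of a group unless single libraries are given. The members and lists were chosen with earlier results of these data known. Library values were given for members called after depletion, for the 12 largest called changes between steady RPF and FRC, for the 3 most abundant members per length and for members whose groups did not overlap after depletion. Values of other members and pathway genes were named by their role. One pathway gene of the lists is not reported here.

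Alternatives were RLE, upper quartile and no scaling beyond library totals, no filter, a 1 CPM filter, DESeq2 1.42.0, limma-voom (limma 3.58.1), a non-robust fit, a term for libraries without Y-linked reads (fewer than 10 counts), the compared groups alone and each library left out. FRC 2 and steady RPF 2 left out together, and the summed near-identical pairs, were added after seeing the data. Near-identical sequence was counted in 50-base windows of the longest transcripts. In simulated counts only 100 genes were changed 2-fold and 100 4-fold, over 14359 genes for depletion and 14380 for steady RPF against FRC. The fit recovered 8% and 11% of the 2-fold and 43% and 31% of the 4-fold changes. Far fewer genes were changed than were called in the data, which makes the adjustment stricter, so these shares may be too low for the data.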

Additional observations from a re-analysis of the deposited data

How the results depend on the processing

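Each difference between the class medians kept its sign in every alternative that gave a value, while the counts of called members varied. After depletion 7 members were called, and 4 to 8 with 1 library left out, the lowest without steady RPF 2. The count of members called lower was 1, and 0 in 5 of 20 alternatives. It was between 0 and 1 with 1 library left out, and 0 with the term for libraries without Y-linked reads. That term also removed the higher call of Ifi35 after depletion. Between steady RPF and FRC it removed the calls of Ifit1, Usp18, Parp9 and Igtp. Between steady RPF and FRC 18 members were called higher, and 29 with library totals only. The difference between the class medians (type I style minus Gbp, Irg and Cxcl genes, log2) was 1.49 for steady RPF against FRC, and 1.42 to 1.82 with 1 library left out. For depleted against steady RPF it was 0.27, and 0.13 to 0.29 with 1 library left out. For depleted RPF against FRC it was 2.08, with 2.30 under limma-voom and 1.83 to 2.34 with 1 library left out.

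Over all genes, 1505 were called lower after depletion, against 2590 with DESeq2 and 968 without steady RPF 2. Between steady RPF and FRC 1734 were called higher and 2174 lower, against 2610 higher with DESeq2 and 3935 higher and 1342 lower with library totals only. Between depleted RPF and FRC 2557 were called higher, against 3933 with library totals only. Of 38 fold changes of named members in these alternatives, 23 stayed on the same side of the threshold throughout and none reversed. These 38 were called in either of the first 2 comparisons or, after depletion, did not overlap, which makes a reversal unlikely beforehand. Outside the 38, other scaling turned the signs of Gbp7, Igtp and Ifit3 after depletion. It also turned those of Mx1 and Gbp7 between steady RPF and FRC. Oasl1, Usp18, Gbp2 and Cxcl10 were called after depletion in all 20 alternatives. Where a call was lost with other scaling or a left-out library, the cause was not tested. The pathway genes outside the 41 were not run under the alternatives. No paired analysis was possible because the labels give no replicate numbers that the groups share and the sources used here do not say which libraries share mice.

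With 3 libraries a group the simulated recovery of 2-fold changes was low, so a member that was not called is not shown to be level. Counts of Oas3, and of Oas2 in FRC, limit what can be said of these genes.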

Other observations

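Many members are neighbours on their chromosomes (build mm10), and neighbours did not always have like values. Oasl2 (chr5:114896936-114912234) and Oasl1 (chr5:114923240-114937915) are 11005 bases apart. After depletion Oasl1 had a log2 fold change of 1.91 (SE 0.35) and Oasl2 of 0.32 (SE 0.28). Cxcl9 (chr5:92321347-92328079) and Cxcl10 (chr5:92346638-92348889) are 18558 bases apart, with log2 fold changes of -0.34 (SE 0.42) and 2.61 (SE 0.50) after depletion and -4.08 and -4.52 between steady RPF and FRC. Gbp3 (chr3:142560026-142573209) and Gbp2 (chr3:142620602-142638008) are 47392 bases apart, with -0.55 (SE 0.50) and 1.33 (SE 0.21) after depletion. Rsad2 and Cmpk2 lie 12751 bases apart on chromosome 12, with 1.77 (SE 1.07) and 0.37 (SE 0.82) after depletion. The differences between neighbours were not tested.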
